A study of Mus musculus with 6 samples.

Results

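Immediate early genes are the first genes a cell transcribes after a stimulus, and 10 of them were followed here in the embryonic mouse retina with and without the transcription factor Onecut1 (OC1): Fos, Fosb, Jun, Junb, Atf3, Egr1, Egr2, Egr3, Nr4a1 and Ier2. They were chosen by name, with earlier results of these data known, from the 18193 genes that the arrays measured with a probe set of their own. All 10 had such a probe set, 13 in all, with more than 1 for Jun, Egr2 and Egr3. The animals were OC1-KO embryos, which lack Onecut1, and OC1-WT littermates (WT) as their control, 3 embryos of each genotype with 1 array per embryo. The labels gave the age as E14 and the series description as E14.5. Both genotypes shared a mixed strain background, from R1 embryonic stem cells and a Swiss strain crossed to C57Bl/6. The knockout was not restricted to the retina, and the array read whole dissected retina washed in buffer, so that fewer cells of a type and less RNA per cell cannot be told apart.

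Immediate early transcripts need no new protein for their induction. Growth factors, neurotransmitters, calcium entry, stress and injury act through MAP kinases and through factors already bound at the promoters, chiefly serum response factor with its ternary complex partners at CArG boxes and CREB at cyclic AMP response elements (CRE). Most of the products are transcription factors themselves: FOS and JUN proteins pair as AP-1, EGR proteins bind GC-rich sites through zinc fingers, and NR4A proteins are orphan nuclear receptors. The messages are short-lived, and in neural tissue they are widely used as a record of recent stimulation, dissection included.

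The promoters are shown because shared induction is what defines these genes. RefSeq windows of 300 bases on GRCm38.p6, running from 250 bases before to 50 bases after each annotated start, were at hand for 7 of the 10 genes (Fos, Fosb, Jun, Junb, Egr2, Atf3 and Nr4a1). Capitals mark matches on either strand to the CArG box, the CRE (TGACGTCA), the AP-1 site (TGANTCA), the EGR site (GCGNGGGCG) or the shorter CRE core (TGACG), the last being contained in the whole CRE and searched only after the windows had been seen. The 4 windows printed are those of Fos (chr12:85473640-85473939, plus strand), Fosb (chr7:19309996-19310295, minus strand), Junb (chr8:84978699-84978998, minus strand) and 1 of the 5 annotated start windows of Egr2 (chr10:67537619-67537918, plus strand).
Fos: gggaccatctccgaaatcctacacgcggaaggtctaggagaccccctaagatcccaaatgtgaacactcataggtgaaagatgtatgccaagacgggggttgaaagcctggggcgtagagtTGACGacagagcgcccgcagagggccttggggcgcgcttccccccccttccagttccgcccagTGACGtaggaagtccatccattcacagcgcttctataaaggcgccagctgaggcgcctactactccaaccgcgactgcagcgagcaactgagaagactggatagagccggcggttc
Fosb: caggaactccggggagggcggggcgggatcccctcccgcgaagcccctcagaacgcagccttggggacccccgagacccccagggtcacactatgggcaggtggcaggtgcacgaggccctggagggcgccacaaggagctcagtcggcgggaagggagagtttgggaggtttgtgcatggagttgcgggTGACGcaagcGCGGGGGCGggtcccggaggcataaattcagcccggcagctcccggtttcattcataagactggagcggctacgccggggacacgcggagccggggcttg
Junb: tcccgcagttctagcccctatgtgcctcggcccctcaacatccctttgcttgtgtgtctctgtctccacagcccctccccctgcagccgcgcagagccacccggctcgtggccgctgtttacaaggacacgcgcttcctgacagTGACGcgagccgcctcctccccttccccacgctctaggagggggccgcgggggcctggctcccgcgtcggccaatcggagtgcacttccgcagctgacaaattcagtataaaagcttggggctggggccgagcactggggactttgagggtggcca
Egr2: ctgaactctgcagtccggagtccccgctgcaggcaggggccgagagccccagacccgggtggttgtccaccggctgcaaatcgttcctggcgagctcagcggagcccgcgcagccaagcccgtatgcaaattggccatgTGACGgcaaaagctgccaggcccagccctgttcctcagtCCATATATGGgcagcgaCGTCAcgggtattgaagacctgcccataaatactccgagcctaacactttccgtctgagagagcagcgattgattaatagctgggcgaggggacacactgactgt

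A CArG box was found in 1 of the 7 genes, Egr2, against 1.81% of the 27025 genes in the table. The EGR site was found in 2 of 7, Fosb and Nr4a1, against 6.27% of all genes. No window of the 7 held a whole CRE, which 2.03% of all genes have, or an AP-1 site, which 8.97% have. The CRE core, searched only after the windows had been seen, lay in 6 of 7, all but Jun, against 23.1% of all genes. Nothing is read from that contrast, since the search was chosen with the same windows in view. A gene was counted if any of its windows held the match, and Egr2 has 5. These matches describe letters within a short window and say nothing of factor binding or of sites farther upstream.

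In the retinas themselves, Egr1 and Fos were the genes whose brightest probe set stood higher in OC1-KO than in WT in all 3 embryo pairs, by 1.38 and 1.91 on the log2 scale. Jun and Ier2, whose probe sets passed the signal filter in both genotypes, differed by 0.029 and 0.0016. Junb and Egr3 were the only members with a lower mean in OC1-KO, and Fosb, Atf3, Egr2 and Nr4a1 were higher by amounts between 0.047 and 1.45. No member passed limma's test after Benjamini-Hochberg adjustment over the whole array, and the same was true of every other probe set: 0% of the 20888 probe sets kept passed, while 210 of them had an unadjusted p under 0.05 (limma). The statements on single members below are therefore descriptions of 3 embryos against 3.

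**Figure D1:**
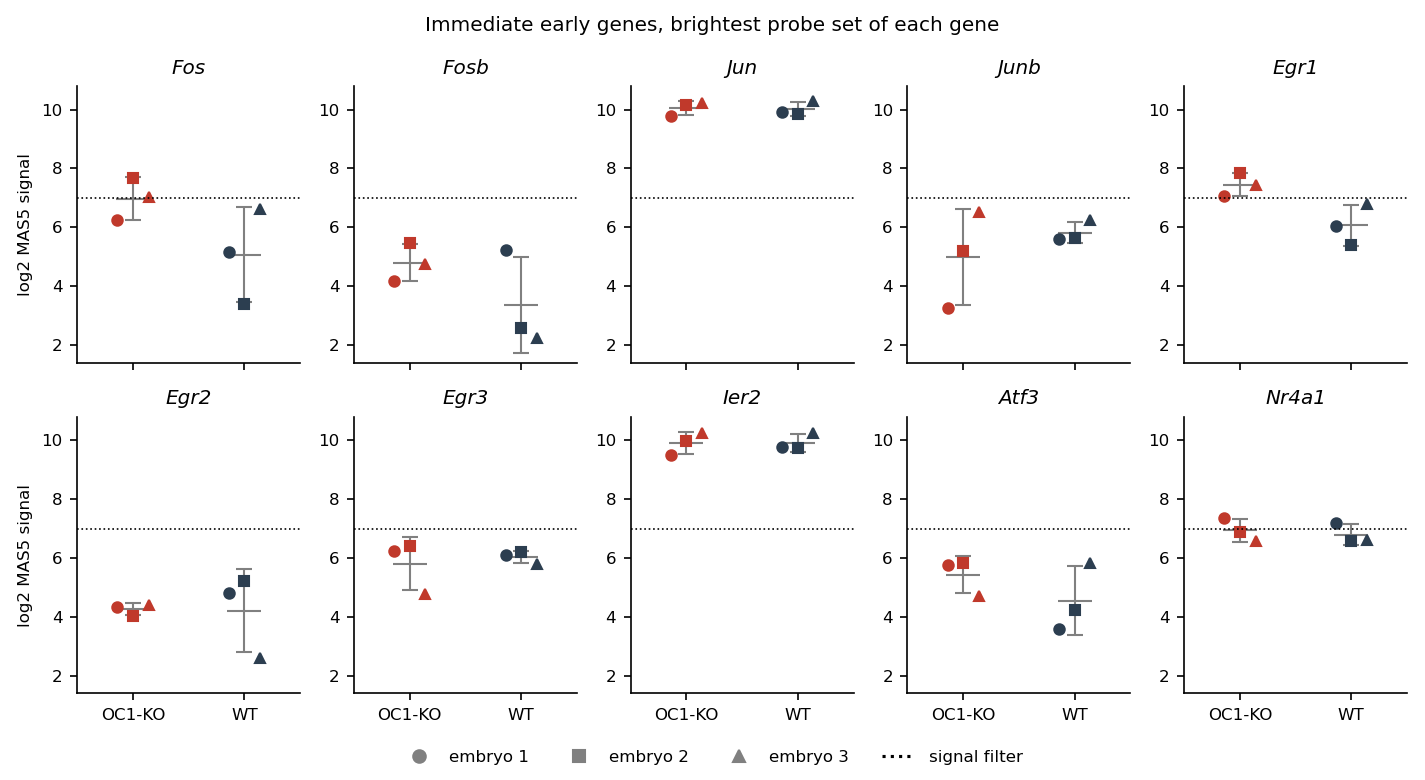
Log2 MAS5 signal (vertical axis) of the brightest probe set of each of the 10 immediate early genes in 3 OC1-KO and 3 WT retinas. Points are single embryos with their number by shape, bars are mean ± SD and the dotted line is the signal filter at 7; the genotypes do not overlap for Egr1 alone.

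Values are log2 of the MAS5 signal, and a probe set was kept where its mean was over 7 in either genotype, the rule given in the study's methods. Of the members, 4 probe sets of 3 genes (both of Jun, with Egr1 and Ier2) were kept and 9 probe sets of 7 genes fell below, so most of these genes were close to the range where MAS5 signals scatter. The median SD within genotypes was 1.12 for probe sets with a mean under 5, 0.505 between 5 and 7 and 0.251 over 7. A difference as large as that of Egr1 was reached in either direction by 14.6%, 1.14% and 0.0442% of the probe sets in these 3 ranges. Egr1 itself passed the filter only through its OC1-KO mean.

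Over the 6 arrays, 43.4 to 46.7% of probe sets had a log2 signal over 7, and the median signal was 85.0 to 104. Both low ends were those of OC1-KO 3, and the other arrays had 45.5 to 46.7% and 97.3 to 104. MAS5 scales each array, so likeness in level was in part set by the processing. Retinal progenitor markers (7 of 8 with a probe set) and ganglion cell and newborn neuron markers (5 of 6) all passed the filter. Summed signals of the lens and of the red blood cell markers were highest in the 2 arrays numbered 3, the lens sum being 8557 in OC1-KO 3 and 16934 in WT 3 and at most 255 on the other 4 arrays. Embryo number separated 5.32% of the probe sets kept (limma F test, adjusted p under 0.05). Differences for embryos 1 and 2 alone, without the arrays numbered 3, are given for Egr1, Fos, Fosb, Junb, Atf3, Egr2, Dusp5 and Ccn2. Onecut1 itself was read by 2 probe sets whose differences were -0.0068 (SE 0.34) and -0.17 (SE 0.48), and no source at hand places them relative to the deleted sequence, so they do not check the genotype labels.

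Egr1 encodes a zinc finger factor that is induced by growth factors and by light and activity in neural tissue. Its log2 signal was 7.06, 7.85 and 7.42 in OC1-KO embryos 1 to 3, against 6.05, 5.38 and 6.78 in WT embryos 1 to 3. The lowest OC1-KO retina stood above the highest WT retina, and WT 3 came nearest to the OC1-KO level. The means were 7.45 ± 0.40 in OC1-KO and 6.07 ± 0.70 in WT (SD, n = 3 each), a 2.60-fold difference in signal (log2 difference 1.38, SE 0.37). The exact permutation test gave p = 0.1, two-sided, the smallest that 3 against 3 allows. In the fit of kept probe sets, which Egr1 entered only through its OC1-KO mean, limma gave a p of 0.00801 before adjustment and an adjusted p of 1.00. In the fit of all probe sets the limma p was 0.0187 before adjustment. With the embryo number as a block the adjusted p was 0.999.

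Groups without overlap were found for 1 of the 13 member probe sets, against 5.49% of all probe sets and 3.56% of those kept. An unadjusted limma p under 0.05 was reached by 1 of 13 in the fit of all probe sets, against 2.9% of all and 1.01% of those kept. With the block it was reached by 1 of 13, against 4.32% of all and 4.37% of those kept. That 1 was Egr1, whose p with the block came from the fit of kept probe sets. With the block, 0% of the probe sets kept passed after adjustment. A single probe set is the smallest count above 0 that the 13 can give, and nothing about the members is read from these shares. Leaving out 1 array at a time left Egr1 higher in OC1-KO by 1.03 (without WT 2) to 1.73 (without WT 3), and embryos 1 and 2 alone gave 1.74.

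Fos, whose product is the founding partner of JUN in AP-1, had log2 signals of 6.23, 7.66 and 7.04 in OC1-KO embryos 1 to 3, against 5.17, 3.40 and 6.62 in WT embryos 1 to 3. WT 3 exceeded OC1-KO 1, so the genotypes overlapped, and WT 2 stood far below every other array. The means were 6.98 ± 0.72 in OC1-KO and 5.06 ± 1.61 in WT (SD, n = 3 each). The difference of 1.91 (SE 0.87) had an exact permutation p of 0.2, two-sided, and a limma p of 0.0731 before adjustment (adjusted p = 1.00). Differences within the embryo pairs were 1.06, 4.26 and 0.42, so that the size came mostly from pair 2, and without WT 2 the difference was 1.08.

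Fos signal lay just under the filter, at a mean of 6.98 in OC1-KO. Leaving out WT 3, the WT array with the highest Fos, gave a difference of 2.69, and embryos 1 and 2 alone gave 2.66. Adding 32 to every signal before the log, which damps low signals, reduced the difference to 1.15. No setting gave Fos an adjusted p below 0.05. Being higher in OC1-KO in 3 of 3 pairs was shared by 3 of the 13 member probe sets (Fos, Egr1 and the second Jun probe set), against 10.7% of all probe sets.

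**Figure D2:**
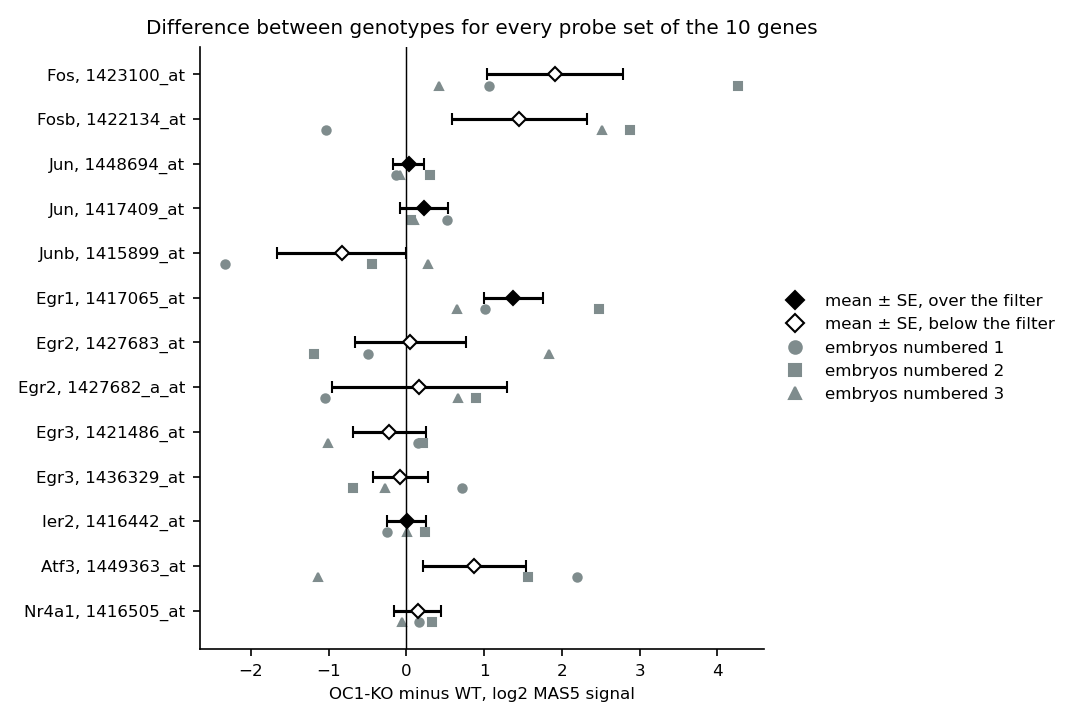
OC1-KO minus WT in log2 MAS5 signal (horizontal axis) for the 13 probe sets of the immediate early genes; diamonds with bars are the mean difference ± SE, filled where the probe set passed the filter, and grey points are the 3 embryo pairs. Fos, Egr1 and the second Jun probe set lie to the right of 0 in all 3 pairs.

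Fosb encodes a FOS relative that accumulates as a truncated form after repeated stimulation. Its signal was 4.18, 5.45 and 4.75 in OC1-KO embryos 1 to 3, against 5.22, 2.58 and 2.24 in WT embryos 1 to 3, all well below the filter. The genotypes overlapped through WT 1 alone, with a difference of 1.45 (SE 0.87, exact permutation p = 0.3, two-sided). It was 2.39 without WT 1, 0.90 without WT 3 and 0.92 for embryos 1 and 2 alone, and the array that was lowest for Fosb was WT 3, not WT 2 as for Fos.

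Jun, the central JUN partner, was read by 2 probe sets. The brighter gave 9.77, 10.15 and 10.21 in OC1-KO embryos 1 to 3, against 9.91, 9.84 and 10.29 in WT embryos 1 to 3. The difference was 0.029 (SE 0.20, exact permutation p = 1.0, two-sided), and it lay between -0.057 and 0.17 with each array left out. The other gave 9.77, 9.65 and 10.34 in OC1-KO embryos 1 to 3, against 9.25, 9.59 and 10.25 in WT embryos 1 to 3, a difference of 0.23 (SE 0.30, exact permutation p = 0.5, two-sided). In both, the highest array of each genotype was the one numbered 3, and the limma F test of embryo number gave adjusted p = 0.258 for the brighter and adjusted p = 0.0788 for the other.

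Junb, whose product can replace or oppose JUN, gave 3.26, 5.18 and 6.51 in OC1-KO embryos 1 to 3, against 5.59, 5.62 and 6.24 in WT embryos 1 to 3. Its OC1-KO arrays held both the lowest and the highest of the 6 values. The difference of -0.83 (SE 0.83, exact permutation p = 0.5, two-sided) was set by OC1-KO 1, without which it was 0.026, and embryos 1 and 2 alone gave -1.39. Atf3, a stress-induced bZIP factor and a marker of injured retinal ganglion cells, gave 5.77, 5.82 and 4.70 in OC1-KO embryos 1 to 3, against 3.58, 4.25 and 5.84 in WT embryos 1 to 3. It was higher in OC1-KO in pairs 1 and 2, by 2.19 and 1.56, and the third pair had the opposite sign, at -1.14. The difference over all 6 arrays was 0.87 (SE 0.66, exact permutation p = 0.4, two-sided), and embryos 1 and 2 alone gave 1.88 (limma, adjusted p = 0.755).

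The other EGR genes lay below the filter. Egr2, known for its part in hindbrain segmentation and in myelination, gave 4.33, 4.04 and 4.42 in OC1-KO embryos 1 to 3, against 4.83, 5.22 and 2.59 in WT embryos 1 to 3. Its difference was 0.047 (SE 0.71), with WT 3 lowest, and embryos 1 and 2 alone gave -0.84. The second Egr2 probe set ranged over 3.89 log2 units among the 6 arrays, with a difference of 0.17 (SE 1.13). Egr3, which acts downstream of activity in muscle spindles and neurons, gave 6.24, 6.41 and 4.79 in OC1-KO embryos 1 to 3, against 6.10, 6.20 and 5.80 in WT embryos 1 to 3. Its difference was -0.22 (SE 0.47), with OC1-KO 3 lowest, and that of its second probe set was -0.082 (SE 0.35). None of these directions held when single arrays were left out.

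Nr4a1, an orphan nuclear receptor, gave 7.36, 6.90 and 6.57 in OC1-KO embryos 1 to 3, against 7.19, 6.57 and 6.63 in WT embryos 1 to 3. Embryo 1 was the highest in both genotypes, and the difference was 0.15 (SE 0.30, exact permutation p = 0.6, two-sided). Ier2, a small nuclear regulator of transcription, gave 9.51, 9.98 and 10.26 in OC1-KO embryos 1 to 3, against 9.76, 9.73 and 10.25 in WT embryos 1 to 3. The difference was 0.0016 (SE 0.25), and the arrays numbered 3 were the highest in both genotypes (limma F test of the number, adjusted p = 0.128). Embryo number reached an unadjusted p under 0.05 (limma F test) for 2 of the 4 member probe sets kept (Ier2 and the second of Jun), against 31.9% of all those kept, and for 1 of the 9 below the filter (the second of Egr2), against 12.7% in the fit of all probe sets. After adjustment it separated no member, and in the fit of all probe sets 0% passed.

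**Figure D3:**
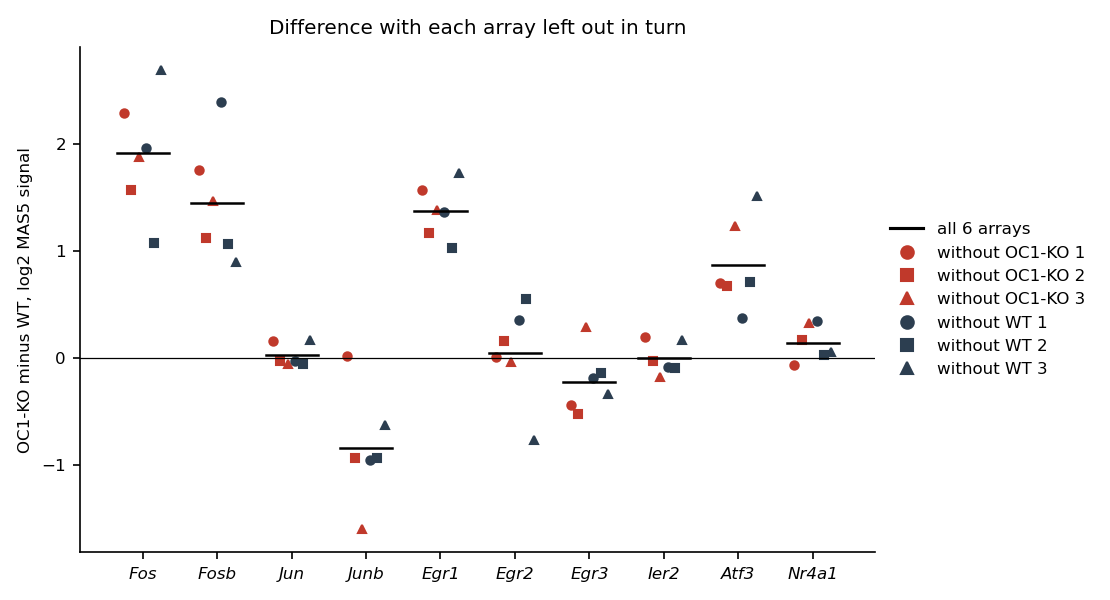
OC1-KO minus WT in log2 MAS5 signal (vertical axis) for the brightest probe set of each gene, with all 6 arrays (bars) and with each array left out in turn (points, genotype by colour, embryo number by shape). Fos, Fosb, Egr1 and Atf3 keep their sign throughout, and the other 6 genes cross 0.

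As a group, 8 of the 10 genes were higher in OC1-KO by their brightest probe set and 2 were lower, with a median difference of 0.097, beside 48.1% higher and a median of -0.011 over all 45037 probe sets. Among the 8, Ier2, Jun and Egr2 were higher by only 0.0016, 0.029 and 0.047. With 1 array left out in turn, 6 to 8 genes were higher. The number higher was 5 in pair 1, 8 in pair 2 and 6 in pair 3, with medians of 0.0024, 0.32 and 0.14. Only Fos, Fosb, Egr1 and Atf3 had the same sign with every array left out in turn. The highest of the 6 arrays was an OC1-KO array for 9 of the 13 probe sets, and the lowest was a WT array for 8. The shares over all probe sets were not computed for these counts, so nothing about the members is read from them. Fos and Egr1 had their lowest values in WT 1 and WT 2, whereas the highest values of Jun and Ier2 in each genotype came from the embryo numbered 3 and those of Nr4a1 from the embryo numbered 1.

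The genes whose profile over the 6 arrays came closest to that of Fos were sought among 10529 genes with a kept probe set, by the root mean square distance between log2 profiles centred on their own means. Dusp5, a nuclear phosphatase that inactivates ERK, and Egr1 were nearest at 0.625 each, beside a median distance of 1.41. Ttr, the thyroid hormone carrier made by pigment epithelium and choroid plexus, followed at 0.685, Pmel, the melanosome fibril protein, at 0.831 and Rtn4r, the Nogo receptor, at 0.836. For Egr1 the nearest were Acap3 at 0.395, Dusp5 at 0.410, Vars2 at 0.429, Itpkb at 0.450 and Xrcc3 at 0.501, beside a median of 0.854. Likeness over 6 arrays is a description with no test. All 5 genes nearest to Fos, and 3 of the 5 nearest to Egr1, passed the filter through their OC1-KO mean alone, as 1.08% of the kept genes did. The filter thus favours, among dim genes, those that are higher in 1 genotype, and part of the likeness was fixed by it.

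**Figure D4:**
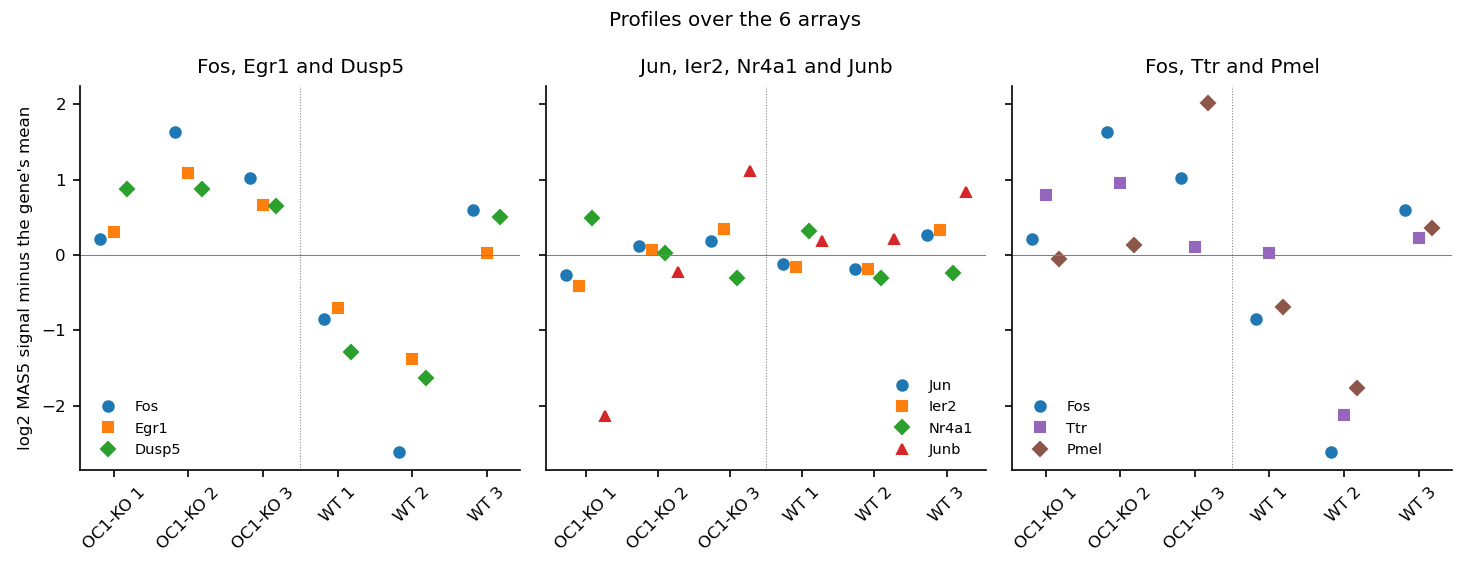
Log2 MAS5 signal minus the mean of the gene over the 6 arrays (vertical axis), for each OC1-KO and WT array. Dusp5, Ttr and Pmel are shown because they were nearest to Fos, so part of their likeness to it was fixed by that choice. Fos, Egr1 and Dusp5 are all above their means in the 3 OC1-KO arrays and WT 3 and below in WT 1 and WT 2 (left panel); Jun and Ier2 are highest in the arrays numbered 3 and Nr4a1 in those numbered 1 (middle), and Ttr and Pmel share with Fos their lowest value in WT 2 (right).

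The pigment gene Pmel and Ttr were, like Fos, lowest in WT 2. They were picked for their nearness to Fos, so this likeness was in part fixed by the choice. Pmel gave 7.61, 7.80 and 9.68 in OC1-KO embryos 1 to 3, against 6.98, 5.90 and 8.03 in WT embryos 1 to 3, and Ttr gave 7.46, 7.63 and 6.77 in OC1-KO embryos 1 to 3, against 6.70, 4.55 and 6.89 in WT embryos 1 to 3. Of the 6 pigment epithelium markers all had a probe set, 2 passed the filter (Pmel and Dct) and their summed signal was 326, 453 and 1762 in OC1-KO embryos 1 to 3, against 293, 194 and 615 in WT embryos 1 to 3. The sum was higher in the OC1-KO retina of each pair, was lowest in WT 2 and was highest within each genotype in embryo 3. Single markers did not all follow it, since 2 of the 6 were higher in OC1-KO in pair 1 and 5 of 6 in pairs 2 and 3. Tyr, like Pmel, was lowest in WT 2. Dct and Tyrp1 were lowest in OC1-KO 1, Mlana in OC1-KO 2 and Rpe65 in WT 1. No marker was at 0, and Rpe65 stayed between 0.77 and 3.69 on the log2 scale. The part of this tissue in the Fos and Egr1 differences was not tested. Summed markers of lens, blood and mesenchyme were likewise highest in both arrays numbered 3.

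Dusp5 was 1 of 2 genes of the wider lists with an unadjusted limma p under 0.05, among 57 kept, against 1.01% of all probe sets kept. It gave 7.22, 7.23 and 7.0 in OC1-KO embryos 1 to 3, against 5.06, 4.72 and 6.86 in WT embryos 1 to 3, a difference of 1.60 (SE 0.52, exact permutation p = 0.1, two-sided, limma adjusted p = 1.00). The genotypes did not overlap, although WT 3 came within 0.14 of OC1-KO 3, and like Egr1 it passed the filter only through its OC1-KO mean. Embryos 1 and 2 alone gave 2.33, while the unadjusted p was no longer under 0.05 without WT 1 (difference 1.36), without WT 2 (difference 1.19) or by the methods' t-test. Of the other 7 MAP kinase phosphatases and feedback genes, 5 passed the filter, 2 of them higher and 3 lower, with a median of -0.070.

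Among 24 further immediate early genes, 15 passed the filter, with 7 higher, 8 lower and a median of -0.0035. Ccn2, a matricellular target of YAP and serum response factor, had 7.11, 6.82 and 6.87 in OC1-KO embryos 1 to 3, against 7.49, 7.86 and 7.23 in WT embryos 1 to 3. It was lower in OC1-KO without overlap (difference -0.59, SE 0.20, exact permutation p = 0.1, two-sided, limma adjusted p = 1.00), and embryos 1 and 2 alone gave -0.71. Ccn2 passed the filter only through its WT mean, the genotype in which it is high. Of the 9 below the filter, 7 were higher and 2 lower, beside 48.1% higher over all probe sets. Over all the lists, 21 genes were below the filter, 11 of them higher and 10 lower. None of the 9 had an unadjusted p under 0.05 (limma) without the block. With it Klf2, a zinc finger factor induced by blood flow in endothelium, did, with pair differences of 2.42, 1.33 and 0.59 (adjusted p = 1.00). AP-1 partners had 3 of 7 kept genes higher and 4 lower, with a median of -0.0040. JunD, encoded by Jund and the JUN protein expressed without stimulation, differed by 0.034 (SE 0.20), and Atf2, a bZIP partner of JUN, by -0.082 (SE 0.16). The EGR co-repressors Nab1 and Nab2 differed by -0.054 (SE 0.14) and -0.018 (SE 0.17), and Nr4a2, the receptor needed by midbrain dopamine neurons, by 0.14 (SE 0.33).

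The list of factors that act upstream of immediate early genes had 5 of 9 kept genes higher with a median of 0.034. Creb1 differed by 0.077 (SE 0.18) and the SRF coactivator Mrtfb by -0.25 (SE 0.22). Binding of these factors at the promoters of the members was not measured. Kinases of the MAP kinase pathways had 5 of 8 higher with a median of 0.052, and Mapk14 (p38) and Map2k2 (MEK2) differed by -0.015 (SE 0.15) and 0.021 (SE 0.22). Map2k1 (MEK1) was higher in OC1-KO in all 3 pairs, by 0.16, 0.31 and 0.55, and with the embryo number as a block its unadjusted p was under 0.05 (limma, adjusted p = 0.999). With the block 3 of the 57 kept list genes reached that threshold (Dusp5, Ccn2 and Map2k1), against 4.37% of all probe sets kept. Heat shock genes, which tissue handling can induce, had 8 of 9 higher with a median of 0.092. The median absolute difference over all probe sets kept was 0.096, and none of the 9 had an unadjusted p under 0.05 (limma). The abundant chaperones Hspa8 and Hsp90aa1 differed by 0.055 (SE 0.21) and -0.068 (SE 0.18). Ppp1r15a, a phosphatase subunit of the integrated stress response, was higher in OC1-KO without overlap and in all 3 pairs, by 0.24, 0.21 and 0.10 (difference 0.18, SE 0.14, limma adjusted p = 1.00). Groups without overlap were found for 3 of the 57 kept list genes (Dusp5, Ccn2 and Ppp1r15a), against 3.56% of all probe sets kept. Of all probe sets, 10.7% were higher in 3 of 3 pairs. Ppp1r15a was named after its values were seen, so nothing is read from its separation. The small heat shock protein gene Hspb1 followed embryo number (limma F test, adjusted p = 0.0456), at 6.92, 7.79 and 8.57 in OC1-KO embryos 1 to 3, against 6.74, 6.82 and 8.40 in WT embryos 1 to 3. It was the only 1 of the 57 kept list genes that embryo number separated, against 5.32% of all probe sets kept. Hspb1 was also named after its values were seen, so nothing is read from this. Over all 57 kept genes of these lists, 32 were higher and 25 lower with a median of 0.034, beside 47.7% higher and a median of -0.0074 over all probe sets kept.

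**Figure D5:**
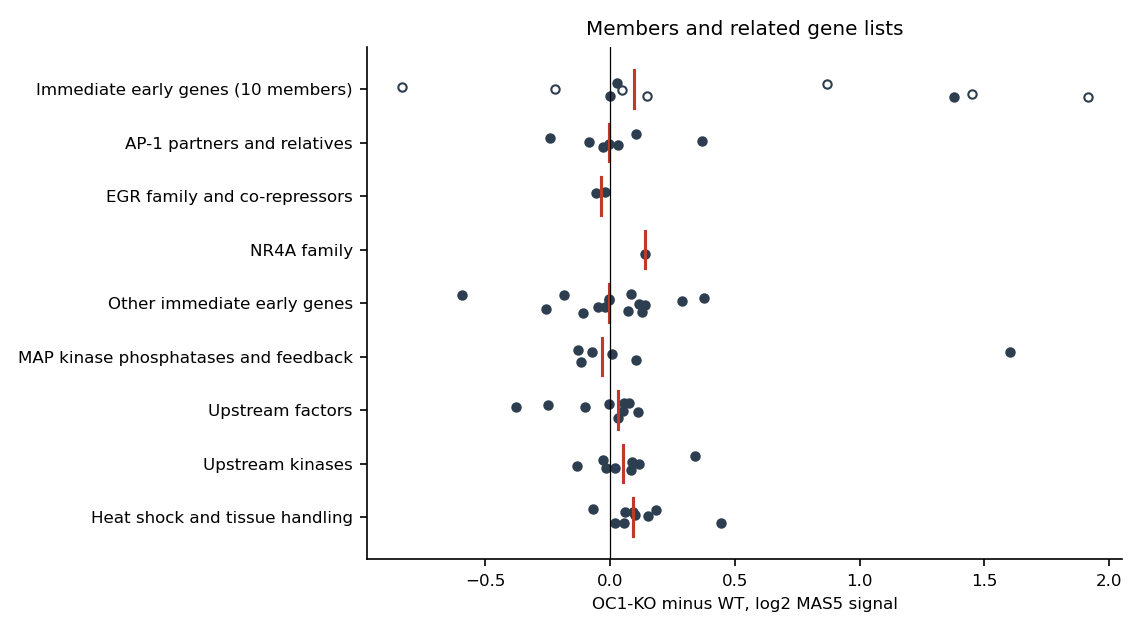
OC1-KO minus WT in log2 MAS5 signal (horizontal axis) for the 10 immediate early genes and the kept genes of the related lists; each point is a gene (open where below the filter) and red lines are list medians. Dusp5 at 1.60 and Ccn2 at -0.59 are the only list genes with an unadjusted p under 0.05 without the block.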

How the data were processed

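Retinas of 3 OC1-KO and 3 WT embryos, 1 Affymetrix mouse genome array each, were analysed. The authors amplified total RNA, hybridised it and made the deposited intensity values with MAS5 (Affy package in R), which corrects background and scales each array. The deposited table is linear, and it was taken to log2 here, so the counting depth does not apply and precision is limited by the number of arrays. Gene names came from the platform annotation: of 45037 probe sets that are no control, 34958 had 1 symbol, 932 several and 9147 none. Probe sets with a mean log2 signal over 7 in either genotype were kept (20888), as in the study's methods. Genotypes were compared with limma 3.58.1 (lmFit and eBayes, R 4.3.3) over the kept probe sets with Benjamini-Hochberg adjustment. Members below the filter were read from a fit of all probe sets. A threshold of 0.05 was used throughout, and the code was tested on simulated data. Tables and exact permutation tests used Python 3.11.15 with pandas 2.3.3 and scipy 1.17.1. A gene is represented by its brightest probe set over the 6 arrays. Levels of different probe sets were used together only to pick the brightest, to group probe sets by mean signal and to sum marker signals.

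The labels number the embryos 1 to 3 in each genotype and do not state that equal numbers share a litter or batch. After removal of genotype means, arrays with the same number correlated at 0.509, 0.575 and 0.671. Arrays with different numbers correlated between -0.438 and -0.0371. With the means removed, positive values for equal numbers force negative ones on average for different numbers, so the latter are no separate evidence. From the values for equal numbers alone, the numbers were treated as pairs in the blocked alternative. All 10 members were named, with the genes of each list at an unadjusted p under 0.05 or otherwise its 2 brightest kept, and the 5 nearest profiles of Fos and of Egr1. Hspb1, Map2k1, Klf2, Ppp1r15a, Dct, Tyr, Tyrp1, Mlana, Rpe65 and Onecut1 fall outside this rule and were named after their values were seen. The members and lists were chosen with earlier results of these data known. Promoter windows came from the RefSeq table of GRCm38.p6. Alternatives were the block, the methods' t-test, quantile normalization, an added signal of 32, an intensity trend, other filters, other probe sets per gene and the omission of arrays.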

Additional observations from a re-analysis of the deposited data

How the results depend on the processing

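Of 163 member differences under the alternatives, 24 changed sign and 0 reached an adjusted p under 0.05; Egr1 and Fos stayed higher in OC1-KO in all of theirs. The replicate block changed no member's call. Among all kept probe sets, 77 were higher and 133 lower at an unadjusted p under 0.05 (limma). The block gave 327 higher and 586 lower, embryos 1 and 2 alone 252 higher, the methods' t-test 160 higher, the stricter filter 48 higher and 69 lower, no filter 611 higher and 694 lower, an intensity trend 69 lower, and leaving out 1 array 61 to 222 higher and 85 to 254 lower. The 1111 probe sets separated by embryo number became 1905 with 32 added to the signal, 4106 with a trend, 2308 with the stricter filter, 0 without a filter and 0 to 1481 with 1 array left out. The 1 member gene at an unadjusted p under 0.05, Egr1, became 2 with 32 added or with a trend (Fos joining), 4 with embryos 1 and 2 alone (Fos, Egr1 and Atf3 higher, Egr2 lower), and 1 to 4 with an array left out (4 without WT 3), when the member median of 0.097 ranged over 0.17 to 0.35. The 2 list genes at that p (Dusp5 and Ccn2) became 1 with a trend, 5 with embryos 1 and 2 alone, 0 with the stricter filter, and 1 to 3 with an array left out. Signs also turned with embryos 1 and 2 alone for Egr2 (-0.84 and -0.080 for its 2 probe sets), Egr3 (0.18 and 0.014), Nab2 (0.13), Map2k2 (-0.020) and Hspa8 (-0.075), with 32 added for Egr2 (-0.081), and with quantile normalization for Ier2 (-0.0019), Nab2 (0.010) and Hspa8 (-0.024). With 1 array left out, differences spanned 0 for Jun (-0.057 to 0.17), Junb (-1.60 to 0.026), Egr2 (-0.76 to 0.55 and -0.79 to 1.15), Egr3 (-0.52 to 0.29 and -0.44 to 0.15), Ier2 (-0.17 to 0.20), Nr4a1 (-0.061 to 0.34), Jund (-0.14 to 0.16), Atf2 (-0.16 to 0.0061), Nab2 (-0.13 to 0.083), Nr4a2 (-0.21 to 0.40), Creb1 (-0.054 to 0.16), Map2k2 (-0.12 to 0.23), Mapk14 (-0.11 to 0.038), Hspa8 (-0.14 to 0.16) and Hsp90aa1 (-0.18 to 0.027). The cause of these changes was not tested. Most members lie near or below the filter, where with 3 arrays a genotype even a difference larger than the scatter between embryos can go without a call. Fos differed by 1.91 with an SD within genotypes of 1.25, and its limma p was 0.0731 before adjustment.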
